A study of Mus musculus with 3 samples.

Results

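Asns, Phgdh, Psat1, Psph, Shmt2, Mthfd2, Aldh18a1, Pycr1, Pck2 and Cth encode enzymes that make, or prepare the carbon for, asparagine, serine, glycine, one-carbon units, proline and cysteine. They were taken by symbol, 10 of the 32285 genes in the count matrices, and each symbol had 1 row. The 10 were chosen with earlier results of these data known. Shares of all genes set beside their counts are therefore descriptions and no test of the group. Their mRNA was followed in dendritic cells (DCs) that were grown in vitro from wild-type C57BL/6 mice with FLT3L, the cytokine that drives DC development. The cells were sequenced by the 10x Genomics 3′ v3 droplet method in 3 libraries, 1 per group. The control group was grown in 2 mM glutamine. The low-glutamine group was grown in 50 µM glutamine, and the last group in 2 mM glutamine with 1 µM DON (6-diazo-5-oxo-L-norleucine), an analogue of glutamine and inhibitor of many glutamine-consuming enzymes. How many mice gave each library is not given in the sources used here. No group had a replicate, so no difference between groups could be tested, and every 95% interval below covers counting error only. Both treated libraries are compared with the same control library.

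Cells make asparagine, serine and proline from carbon of glycolysis and the citric acid cycle and from the nitrogen or carbon of glutamine and glutamate. Asparagine synthetase (Asns) uses glutamine itself as its nitrogen donor, Psat1 uses glutamate, and Aldh18a1 and Pycr1 turn glutamate into proline. Serine feeds the mitochondrial one-carbon enzymes Shmt2 and Mthfd2, which supply carbon for nucleotides. When amino acids run short, the kinase GCN2 allows translation of the transcription factor ATF4, which is known to bind DNA elements near many of these genes.

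In the order control, 50 µM and DON, the libraries held 89340379, 92002827 and 87611658 UMIs (unique molecular identifiers, counted RNA molecules) in 10497, 9817 and 8962 barcodes. After filters, 10367, 9649 and 8887 cells remained, with a median of 6890, 7909 and 8145 UMIs. The library pairs shared 20 to 31 barcodes and no barcode occurred in all 3. Cells were put in classes by the UMIs of marker genes, and a class here is a range of marker levels, not a proven cell type. The median of the progenitor markers was 10.2, 11.1 and 8.66 UMIs per 10000 in the progenitor gate and 0 to 1.20 in the DC gates. In the pDC gate MHC class II differed between libraries, with a median of 67.6, 13.3 and 22.7 UMIs per 10000. In the same order, the gates held 1170, 167 and 382 cells of type 1 conventional DCs (cDC1), which present antigen of dead cells, and 926, 921 and 570 of type 2 (cDC2). They held 2706, 2665 and 2547 plasmacytoid DCs (pDC), the makers of type I interferon, 566, 229 and 254 mature DCs with Ccr7 and Fscn1, and 363, 1256 and 391 progenitors with Cd34, Kit, Mpo and other early genes. Cells within 25% above the limit of their gate were 0% to 25.1% of these classes, the largest share being that of cDC2 with DON. Cells in no gate were 33.3%, 33.9% and 41.4% of the libraries, and of these the cycling cells low in MHC class II (833, 1596 and 1271 cells) are described as well. A cell is called cycling when it had at least 20 UMIs of 40 cell cycle genes per 10000.

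Of the 10 genes, 9 have a promoter entry in RefSeq (GRCm38.p6), each of 250 bases before to 50 after a start, and Cth has none there. The letters TGATGNAA, the form of the ATF4 and C/EBP element described for amino acid response genes, were searched on both strands. They occurred in the promoters of 3 of these 9 genes, and in 1304 of 32851 promoters of all genes (3.97%). The 3 stretches with a match are shown. Capitals mark the match, which in Pck2 lies on the opposite strand and so reads in reverse complement. The match begins 23 bases before the RefSeq start in Asns and 103 before it in both Pycr1 and Pck2.
Asns, chr6:7693214-7693243, minus strand: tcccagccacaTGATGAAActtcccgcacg
Pycr1, chr11:120643833-120643862, minus strand: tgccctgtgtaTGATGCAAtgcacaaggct
Pck2, chr14:55540152-55540181, plus strand: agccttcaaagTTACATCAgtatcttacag
A match is a description of the letters only, and the Asns match lies inside the longer GENCODE gene model given below. Phgdh, Psat1, Psph, Shmt2, Mthfd2 and Aldh18a1 had no match in this window. Of the 9 genes, all but Phgdh were at least 1.5-fold higher in progenitors at 50 µM glutamine, with or without a match.

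Over all cells of a library, every one of the 10 mRNAs was higher at 50 µM glutamine than in control, and none differed by 1.5-fold with DON. A level is given as UMIs per 1000000 UMIs of the class (CPM), and a ratio as log2 of treated over control after adding 5 CPM to each. A gene was counted as measured when it reached 5 CPM in either library, and as higher or lower at 1.5-fold on that scale. All 10 were measured and higher at 50 µM and none was lower, against 5.93% of all 9627 measured genes higher and 3.96% lower. With DON 7 were measured, 0 higher and 0 lower, against 0.267% and 0.952% of genes. Asns stood first of the 9627 genes, at 4.18 CPM in control, 61.4 at 50 µM and 4.27 with DON. Cth had 13 UMIs in the whole control library, 523 at 50 µM and 15 with DON, a 39.1-fold ratio of CPM at 50 µM (22.7 to 74.0). Levels are not compared between genes, because 3′ counts carry no length and their capture can differ from gene to gene.

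The libraries also differed in which cells they held. Progenitor-gated and ungated MHC class II-low cycling cells together gave 17.2% of control UMIs, 44.5% at 50 µM and 28.1% with DON. At 50 µM they gave 79.0% of all Asns UMIs and 84.5% of those of Cth. When the levels of each class at 50 µM were weighted by the control library's shares of UMIs, Asns was 35.0 CPM in place of 61.4, and Phgdh 91.5 in place of 162. For Mthfd2 the weighting changed little, from 129 to 120 CPM. With these weights the log2 ratios ran from 0.36 for Psph to 2.12 for Asns. In such sums, more cells of a class and more mRNA per cell cannot be told apart, so the classes were compared one by one.

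**Figure D1:**
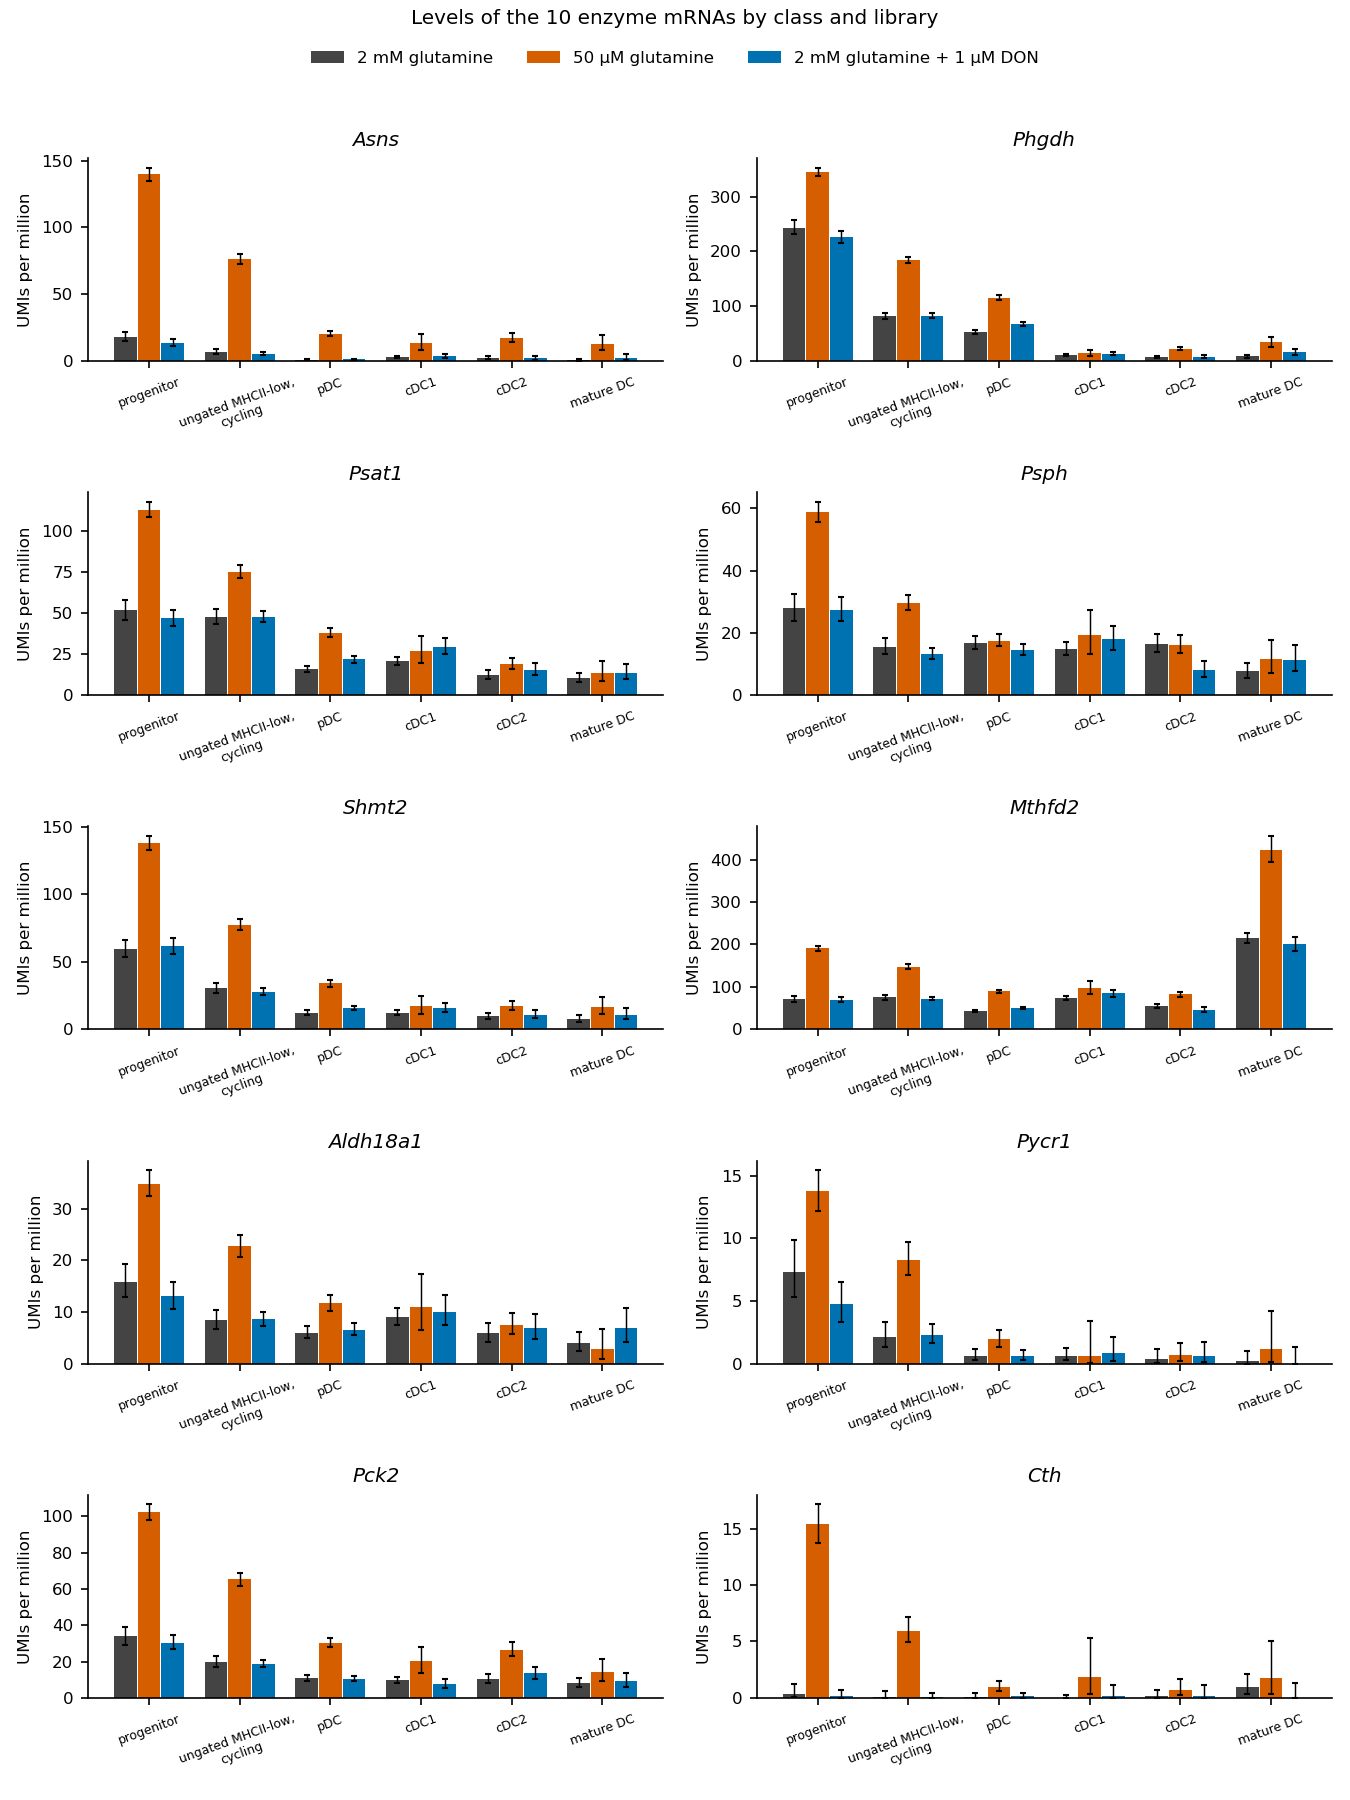
Levels of the 10 mRNAs (y axis, CPM, linear from 0, a scale of its own for each gene) in 6 classes of cells (x axis) and 3 libraries (bar colours), with exact Poisson 95% intervals. The bar of progenitors at 50 µM glutamine is the highest of each panel except for Mthfd2, where mature DCs stand highest at 423 CPM.

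In progenitor-gated cells, which form early myeloid and DC precursors, 9 of the 10 mRNAs were at least 1.5-fold higher at 50 µM glutamine and none was lower. Of all genes measured there, 1.8% were higher and 0.991% lower. The median log2 ratio of the 10 was 1.10, and that of all 9186 measured genes 0.06. With DON 9 were measured and none was higher or lower, against 0.0997% and 0.399% of genes, and 9 of the 10 lay below control by a smaller amount. The cell cycle lists were alike in progenitors of both libraries at 50 µM, with 0 of 20 S phase and 0 of 20 G2 and M phase genes past 1.5-fold, and 90.6% of control and 92% of low-glutamine progenitors were cycling.

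Asns (ENSMUSG00000029752, chromosome 6, 7675169 to 7693254 of GRCm38, minus strand), which makes asparagine, had 18.0 CPM in control progenitors (95% interval 14.8 to 21.7), 140 at 50 µM (135 to 145) and 13.4 with DON (10.9 to 16.3). The 50 µM level was apart from both others, which overlap each other, although the ratio of DON to control, 0.744, had an interval below 1 (0.562 to 0.984). Its log2 ratio at 50 µM was 2.65, the third highest of all 9186 genes. After each cell was thinned to 2000 UMIs, 1.93% of control progenitors (7 of 363, interval 0.779 to 3.93%) had an Asns UMI, 20.3% at 50 µM (255 of 1256, 18.1 to 22.6%) and 2.05% with DON. Without thinning these were 21.8%, 66.0% and 19.9%, at median depths of 15990, 15840 and 18600 UMIs. No class is known to lack Asns, and in mature DCs, among the lowest classes, the thinned shares were 0% (0 of 563 cells, which allows up to 0.533%), 0.881% and 0.394%, at median depths of 6410, 5875 and 7495 UMIs.

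Phgdh, Psat1 and Psph carry out the steps from glycolytic 3-phosphoglycerate to serine. Phgdh (ENSMUSG00000053398, chromosome 3, 98313170 to 98339990, minus strand), the first step, was 244 CPM in control progenitors, 345 at 50 µM and 226 with DON. It was the only one of the 10 under 1.5-fold at 50 µM in this class, with a log2 ratio of 0.49. Psat1, the transaminase (ENSMUSG00000024640, chromosome 19, 15904678 to 15947337, minus strand), was 51.7, 113 and 46.9 CPM in the same order. Psph, the phosphatase of the last step (ENSMUSG00000029446, chromosome 5, 129765558 to 129787449, minus strand), was 28, 58.8 and 27.4 CPM. For all 3 genes the 50 µM interval lay above the others, and those of control and DON overlapped. The ratio of DON to control for Phgdh in cycling progenitors nevertheless had an interval below 1 (0.847 to 0.976). In the few progenitors below the cycling limit that interval included 1 (0.910 to 2.83).

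Shmt2 and Mthfd2 move the serine carbon into the mitochondrial folate pool. Shmt2 (ENSMUSG00000025403, chromosome 10, 127517123 to 127522444, minus strand) was 59.8 CPM in control progenitors, 138 at 50 µM and 61.6 with DON, a 2.31-fold ratio at 50 µM (2.07 to 2.58). Mthfd2 (ENSMUSG00000005667, chromosome 6, 83305691 to 83325908, minus strand), which oxidises the folate-bound carbon, was 71.2, 191 and 70.4 CPM, a 2.68-fold ratio (2.42 to 2.97). Control and DON were thus close for both genes.

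Aldh18a1 and Pycr1 make proline from glutamate. Aldh18a1 (ENSMUSG00000025007, chromosome 19, 40550257 to 40588463, minus strand), which reduces glutamate, was 15.8 CPM in control, 34.8 at 50 µM and 13 with DON. Pycr1 (ENSMUSG00000025140, chromosome 11, 120635712 to 120643769, minus strand), which closes the last step, was low, at 7.33, 13.8 and 4.73 CPM from 44, 291 and 36 UMIs. The DON interval of Pycr1 (3.31 to 6.54 CPM) overlapped that of control (5.33 to 9.85 CPM).

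Pck2 and Cth link the group to other pathways. Pck2 (ENSMUSG00000040618, chromosome 14, 55540266 to 55551242, plus strand), the mitochondrial enzyme that makes phosphoenolpyruvate, was 33.8 CPM in control progenitors, 102 at 50 µM and 30.5 with DON. Cth (ENSMUSG00000028179, chromosome 3, 157894248 to 157925077, minus strand), which releases cysteine from cystathionine, had 2 UMIs in control progenitors, 325 at 50 µM and 1 with DON. Its ratio at 50 µM was 46.1-fold, with the wide interval of 12.7 to 382 that 2 control UMIs leave. Cth thus had almost no UMI outside the low-glutamine library.

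Progenitors are a mixed class, so they were also split at 5 UMIs per 10000 of the granule genes Mpo, Prtn3, Ctsg, Elane and Ms4a3, a limit set after the data were seen. In the granule-high cells (215 control, 793 at 50 µM) the log2 ratio at 50 µM was 2.59 for Asns, 0.50 for Phgdh and 1.42 for Mthfd2. In the granule-low cells (148 and 463) these were 2.75, 0.45 and 1.23. Each of the 10 mRNAs was above control at 50 µM in both subsets. Phgdh had the smallest log2 ratio in each of them and was under 1.5-fold, as was Pycr1 (0.54) in the granule-low cells.

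At 50 µM more single progenitors had UMIs of several of these genes. Of thinned progenitors, 4.41% had UMIs of at least 3 of the 10 mRNAs in control, 25% at 50 µM and 3.84% with DON. Without any of the 10 were 44.4%, 21.7% and 41.7%. In ungated MHC class II-low cycling cells, at least 3 were found in 0.967%, 10.6% and 0.788%, and in cDC2 in 0.108%, 0.435% and 0.175%.

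**Figure D2:**
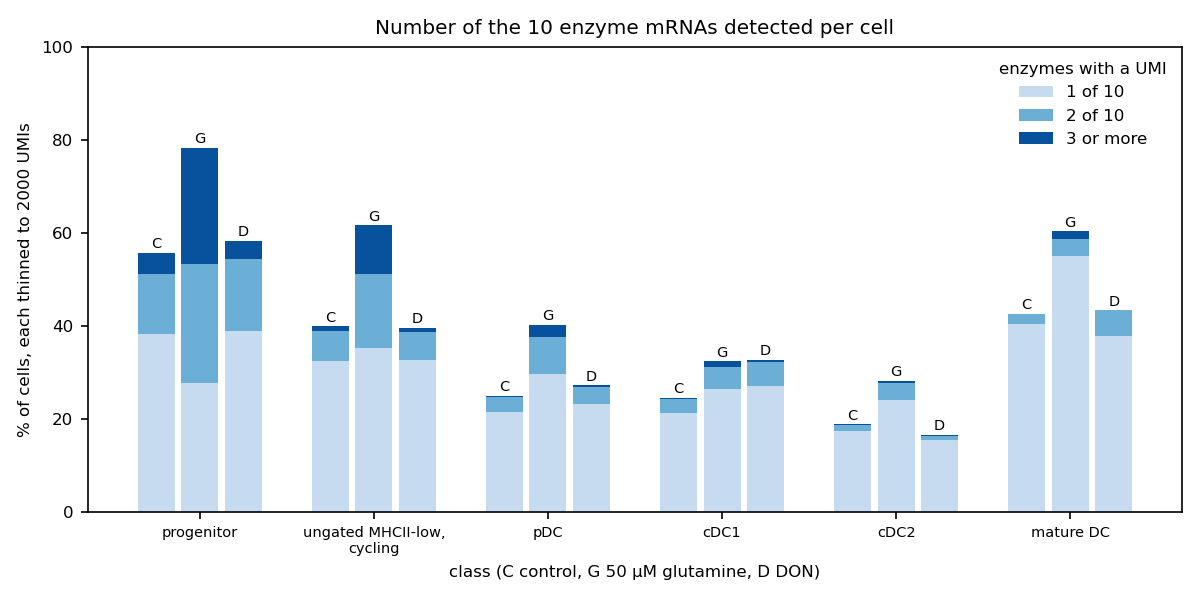
Share of cells (y axis, percent) in which 1, 2 or at least 3 of the 10 mRNAs had a UMI after each cell was thinned to 2000 UMIs, by class (x axis) and library (C control, G 50 µM glutamine, D DON). The dark part, at least 3 mRNAs, reaches 25% in progenitors at 50 µM.

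The ungated MHC class II-low cycling cells, whose medians were 2.01, 2.36 and 1.86 progenitor marker UMIs and 9.41, 12.5 and 9.18 pDC marker UMIs per 10000, followed the progenitors. All 10 mRNAs were higher at 50 µM and none lower, against 1.89% and 2.34% of genes. With DON 8 were measured and none was higher or lower, against 0.0332% and 0.188% of genes. Asns was 7.09, 76.2 and 5.43 CPM and again first in rank, and Shmt2 was 30.4, 77.7 and 27.9 CPM. Phgdh, at 82.0, 184 and 82.9 CPM, passed 1.5-fold here with a log2 ratio of 1.12.

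**Figure D3:**
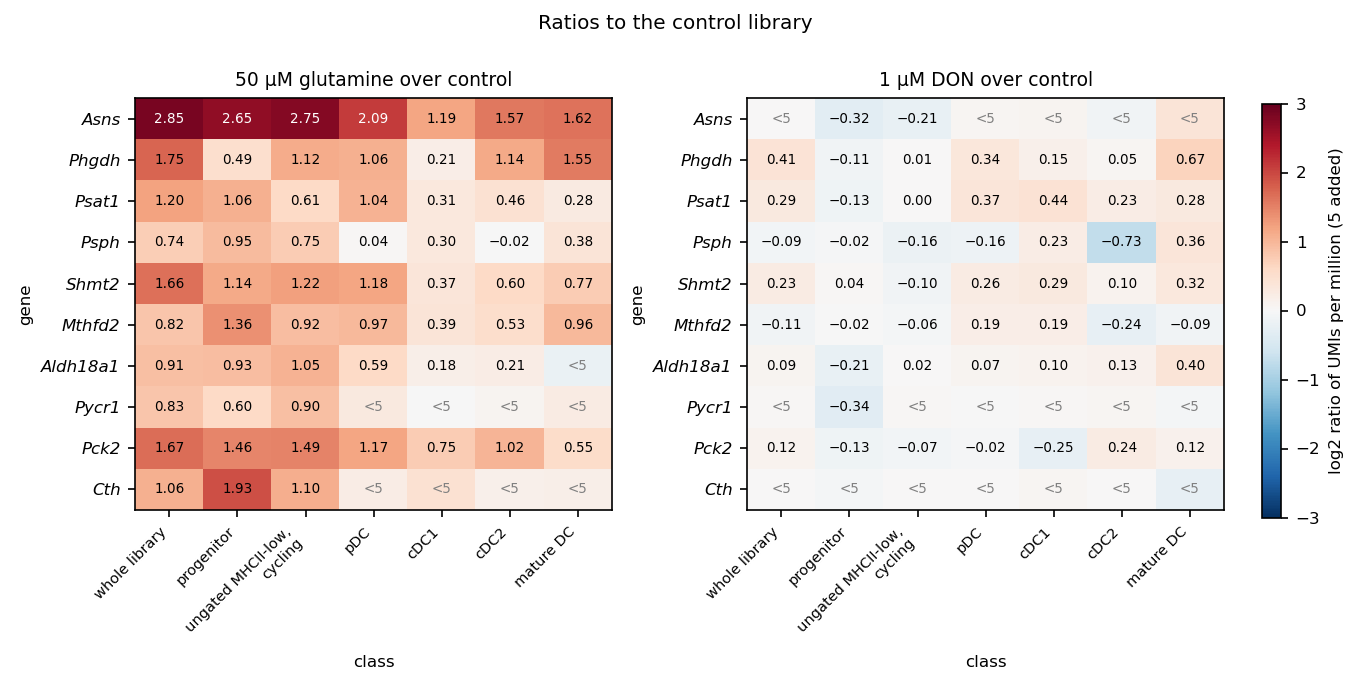
Log2 ratios to control (colour and printed value, 5 CPM added to each side) of the 10 mRNAs (rows) in the whole library and 6 classes (columns), for 50 µM glutamine (left) and DON (right). Cells with under 5 CPM in both libraries are marked <5, and Asns is highest in each of the 7 columns at 50 µM, and DON values lie between -0.73 and 0.67.

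In pDC-gated cells 7 of the 8 measured mRNAs were at least 1.5-fold higher at 50 µM and none was lower, against 8.07% and 2.92% of genes. With DON 7 were measured and none was higher or lower, against 1.22% and 0.59%. Asns had 0.994 CPM in control (17 UMIs), 20.5 at 50 µM (404 UMIs) and 1.20 with DON, the highest log2 ratio of all 9385 genes at 2.09. Phgdh was 53.0, 116 and 68.3 CPM, and the 3 intervals did not overlap. Psph was the exception, at 16.9, 17.6 and 14.7 CPM. Pycr1 and Cth were under 5 CPM.

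The pDC classes of the 2 libraries differed in cycling, with 16.4% of control, 46.8% of low-glutamine and 26.5% of DON pDCs above the limit. In the lists, 19 of 20 S phase genes and 20 of 20 G2 and M phase genes were higher at 50 µM. Within control pDCs, cycling cells had more Psat1 (38.6 against 8.52 CPM), Mthfd2 (77.5 against 32.1) and Phgdh (90.6 against 40.7) than other cells, while Psph (17.6 against 16.6) and Asns (1.19 against 0.929) were close. Below the cycling limit Asns was 0.929 CPM in control and 4.62 at 50 µM, a log2 ratio of 0.70, but under 5 CPM and so not counted as measured. Mthfd2 was 32.1 and 31.8 CPM there, with a log2 ratio of -0.012, Shmt2 10.5 and 18.5 CPM (0.60, the only one of 7 measured past 1.5-fold), and Phgdh 40.7 and 51.2 CPM (0.30). In cycling pDCs Asns was 1.19 and 30.5 CPM, Phgdh 90.6 and 156, and Mthfd2 77.5 and 125. The difference at 50 µM was thus larger for these genes in the cycling cells, which also had more UMIs (median 8890 against 4965 at 50 µM).

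**Figure D4:**
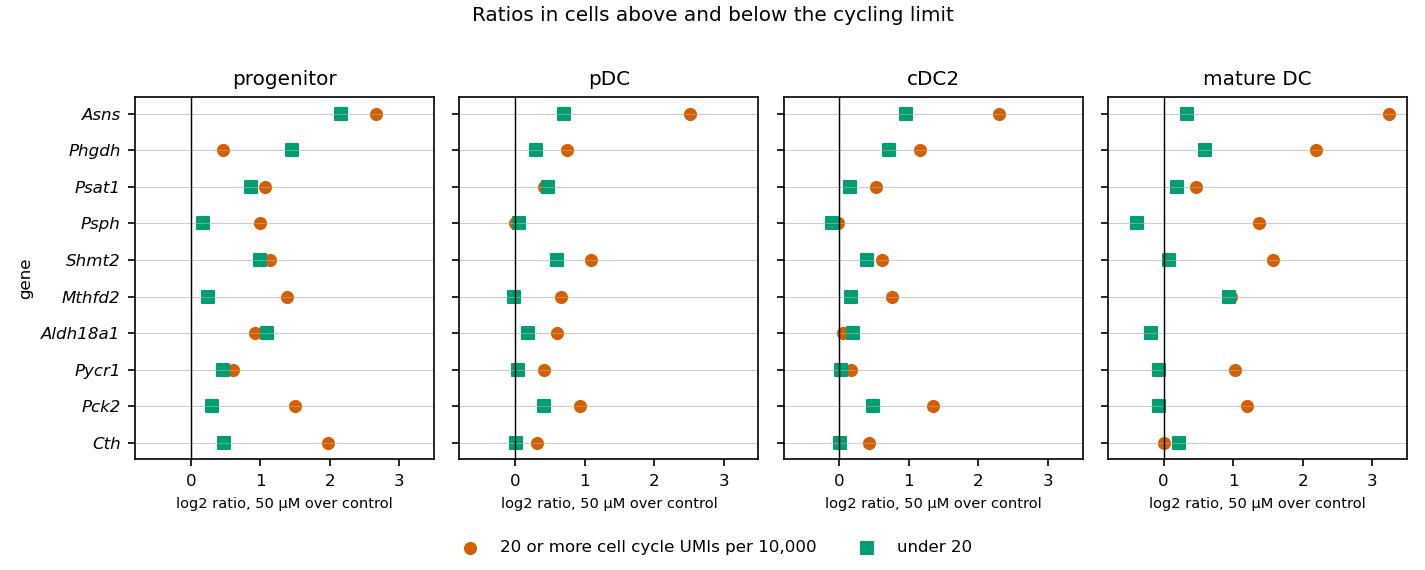
Log2 ratios of 50 µM glutamine to control (x axis, 5 CPM added) of the 10 mRNAs (y axis) in progenitors, pDCs, cDC2 and mature DCs, for cells at or above 20 cell cycle UMIs per 10000 (circles) and below (squares). In pDCs the squares run from -0.012 for Mthfd2 to 0.70 for Asns, while the circles reach 2.52.

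Progenitor marker RNA was found in every DC gate, and at 50 µM its sum was above control in pDCs, cDC2 and mature DCs and close to control in cDC1. The 10 progenitor markers summed to 88.1 CPM in control pDCs and 170 at 50 µM, to 51.2 and 200 in cDC2, to 107 and 161 in mature DCs and to 65.6 and 73.0 in cDC1. As a share of their sum in progenitors of the same library, the 50 µM values were 10.6% in pDCs, 12.5% in cDC2, 10.1% in mature DCs and 4.56% in cDC1. None of the 10 markers was at 0 in pDCs, cDC2 or mature DCs at 50 µM, and 2 were at 0 in cDC1. Neutrophil markers, another abundant RNA, were at 0.0217% to 0.0288% of their neutrophil level in these 4 gates in control. At 50 µM they were at 0.0304% to 0.0661%, and their sum was above control in each gate, as in cDC2 at 83.1 and 164 CPM. These percents are on another scale than those of the progenitor markers. At 50 µM neutrophils held 248200 CPM of their markers, and progenitors 1602 CPM of theirs. Asns at 50 µM stood at 14.7% of its progenitor level in pDCs, 12.4% in cDC2, 9.09% in mature DCs and 9.59% in cDC1. In cDC2 and mature DCs the share of Asns was thus not above that of the progenitor markers over the whole gate. Phgdh stood at 33.5% in pDCs, 6.58% in cDC2, 10.0% in mature DCs and 4.06% in cDC1, and over whole gates it was above the marker share in pDCs only. In control the markers stood at 5.04% in pDCs, 2.93% in cDC2, 6.14% in mature DCs and 3.75% in cDC1. In that order, control Asns stood at 5.52%, 14.0%, 4.10% and 17.0%, and control Phgdh at 21.7%, 3.1%, 3.5% and 4.7%. A share at 50 µM is therefore no measure of the difference from control. At 50 µM, in pDCs below the cycling limit, where the markers stood at 7.61%, Asns was at 3.31% and Phgdh at 14.9%. In cycling pDCs, where they stood at 12.5%, Asns was at 21.9% and Phgdh at 45.2%. The 10 markers also define the progenitor gate, and pDCs or mature DCs that passed that gate too were left out. The enzymes were not gated on. A share above, beside or below that of the markers, here and in the classes that follow, is therefore a description only. The part of progenitor RNA in the differences of the DC gates was not tested.

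**Figure D5:**
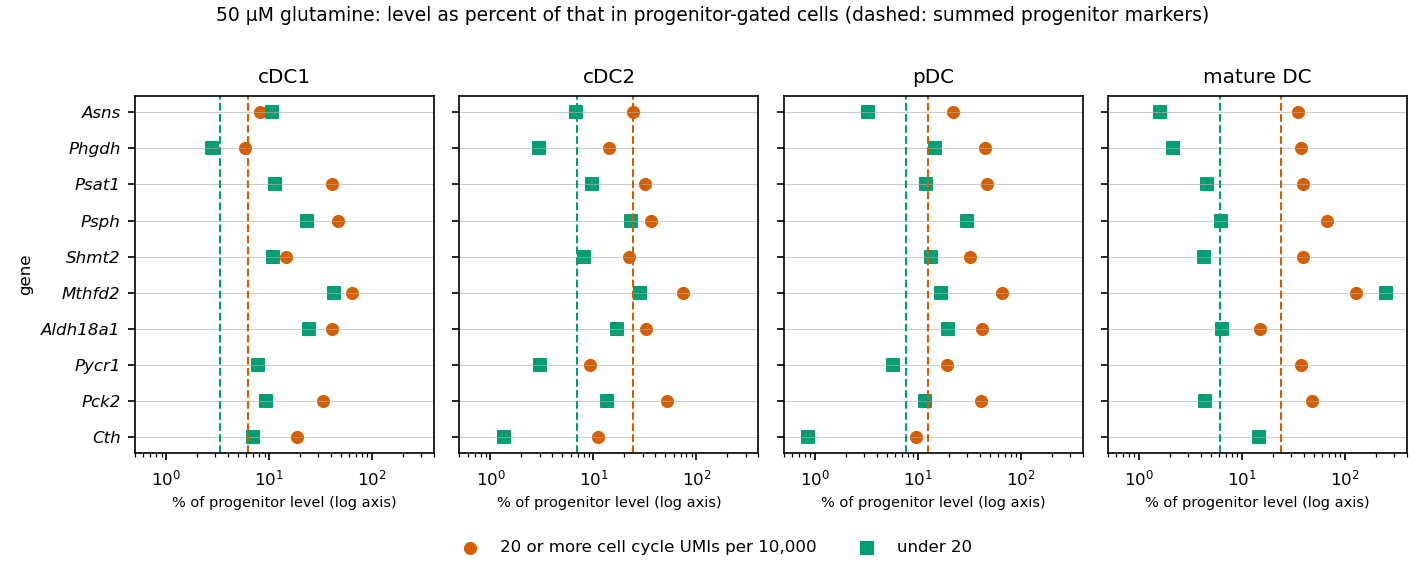
Level of the 10 mRNAs at 50 µM glutamine as percent of the level in progenitor-gated cells of that library (x axis, log scale), in 4 DC gates, for cycling cells (circles) and other cells (squares). Dashed lines give the summed progenitor markers on the same scale in the 2 kinds of cells, values of 0 are not drawn, and Mthfd2 in mature DCs lies far to the right at 249% in cells below the cycling limit.

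In cDC2-gated cells 4 of the 8 measured mRNAs were higher at 50 µM and none was lower, against 4.47% and 1.35% of genes. Asns was 2.52, 17.4 and 2.01 CPM in control, at 50 µM and with DON, Phgdh 7.56, 22.7 and 8.04, Pck2 10.6, 26.6 and 13.5, and Shmt2 9.82, 17.5 and 10.9. These 4 genes were above control and DON, beyond counting error. Cycling cells were 14.5% of control and 21.4% of low-glutamine cDC2, and 5 of 20 S phase and 11 of 20 G2 and M phase genes were higher. Below the cycling limit Asns (log2 ratio 0.96) and Phgdh (0.71) stayed past 1.5-fold, while Pck2 (0.48) and Shmt2 (0.39) did not. At 50 µM Pck2, at 26.1% of its progenitor level, was above the marker share, and Shmt2, at 12.7%, was beside it. In control they stood at 31.4% and 16.4%, where the markers stood at 2.93%. Cycling cDC2 held more progenitor marker RNA (24.1% of the progenitor level at 50 µM) than other cDC2 (6.85%), and Asns followed closely with 24.3% and 6.71%. In control cycling and other cDC2 the markers stood at 6.35% and 1.93%, and Asns at 16.3% and 13.3%.

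Psph was lower with DON in cDC2. It was 16.6 CPM in control (125 UMIs), 16.2 at 50 µM (116 UMIs) and 8.04 with DON (40 UMIs), a 0.485-fold ratio (0.331 to 0.698). The DON interval, 5.75 to 10.9 CPM, did not overlap the others. Its log2 ratio was -0.73 over all cDC2 and below the cycling limit, and -0.70 in cycling cDC2. It was the 1 of 7 measured mRNAs called lower, with 0 higher, against 0.366% lower and 0.477% higher among all genes, and it is under 20 CPM in both libraries. The Psph log2 ratios with DON were 0.23 in cDC1, 0.36 in mature DCs, -0.02 in progenitors, -0.16 in pDCs and -0.16 in ungated MHC class II-low cycling cells. In the few progenitors below the cycling limit Psph was 38.1 CPM in control and 7.59 with DON (ratio interval 0.0217 to 0.896). Few UMIs lie behind these 2 values, and Asns, Aldh18a1 and Pycr1 were at 0 CPM with DON in these cells. The difference between classes was not tested.

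In cDC1-gated cells, which were few at 50 µM (167 cells and 1642951 UMIs), 2 of the 8 measured mRNAs were higher and none was lower, against 2.85% and 1.97% of genes. Asns was 3.06, 13.4 and 3.47 CPM from 43, 22 and 17 UMIs. Pck2 was 9.90, 20.1 and 7.56 CPM. Both exceeded control beyond counting error. At 50 µM both stood above the progenitor marker share of 4.56%, Asns at 9.59% and Pck2 at 19.7%. In control they stood at 17.0% and 29.3%, and the markers at 3.75%. Asns was higher at 50 µM both in cycling cDC1 (1.88 and 11.4 CPM) and in the other cDC1 (4.05 and 14.9 CPM). Pck2 was past 1.5-fold only in cycling cDC1 (15.2 and 34.2 CPM). In the other cDC1 it was 5.49 and 9.56 CPM, with a ratio interval of 0.746 to 3.63 that includes 1. With DON none of the 7 measured mRNAs was higher or lower, against 0.804% and 1.2% of genes, and the largest ratio was that of Psat1, 1.44-fold (1.17 to 1.76). Cycling cells were 34.6% of control and 50.3% of DON cDC1, and Psat1 was 33.2 and 40.7 CPM in them (ratio interval 0.973 to 1.54) and 10.1 and 12.1 CPM in the others (0.722 to 1.94), so that both intervals include 1.

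Mature DCs held the highest Mthfd2 of all classes in each library. It was 215 CPM in control (203 to 227), 423 at 50 µM (393 to 455) and 201 with DON (184 to 218), and after thinning 39.4%, 55.9% and 36.2% of these cells had an Mthfd2 UMI. Below the cycling limit, where 516 of the 566 control and 209 of the 229 low-glutamine mature DCs lay, Mthfd2 was 245 CPM in control, 474 at 50 µM and 234 with DON. Its level there was 344% of that in progenitors in control and 249% at 50 µM, above the level in progenitors themselves. In total 4 of the 7 measured mRNAs were higher at 50 µM and none was lower, against 5.11% and 5.08% of genes. Besides Mthfd2 these were Asns (0.738 and 12.7 CPM), Phgdh (8.49 and 34.6 CPM) and Shmt2 (7.75 and 16.7 CPM). Below the cycling limit Asns (0.736 and 2.23 CPM) and Shmt2 (5.40 and 5.94 CPM) were not past the limits, and Phgdh (3.19 and 7.42 CPM) was, with a ratio interval of 0.914 to 5.75 that includes 1. In the 20 cycling cells at 50 µM, of median 17040 UMIs, Asns was 49.3 CPM. The progenitor markers stood at 23.8% of their progenitor level in those 20 cells and at 6.11% in the others. Asns stood at 35.3%, Phgdh at 37.6% and Shmt2 at 39.5% in the 20 cells, above the marker share, and at 1.60%, 2.15% and 4.30% in the others, below it. In cycling control mature DCs the markers stood at 6.22%, Asns at 4.14%, Phgdh at 10.1% and Shmt2 at 24.9%. With DON 1 of 7 was higher, Phgdh at 16.4 CPM (45 UMIs), and none lower, against 1.77% and 1.38% of genes. Of these 45 UMIs 37 came from 31 cycling cells, and in the other 223 cells Phgdh was 4.18 CPM against 3.19 in control, under 1.5-fold (interval of the ratio 0.471 to 3.41). In the cycling cells Phgdh was 44.8 CPM with DON against 24.6 in control, with a ratio interval of 1.11 to 3.01.

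The other classes had fewer UMIs. Asns in neutrophil-gated cells was 15.5 CPM in control, next to progenitors in order and overlapping them, with 27.5 at 50 µM and 9.23 with DON, and all 3 intervals of 11 to 26 UMIs were wide. Phgdh in B lineage-gated cells was 91.6, 86.4 and 84.0 CPM, second to progenitors in control and with DON, and was near-equal in the 3 libraries. Pck2 was also high there, at 41.2, 39.5 and 33.9 CPM. In B lineage-gated cells the 10 mRNAs together had 93, 215 and 136 UMIs, so these levels carry a wide counting error. Phgdh in ungated MHC class II-low cycling cells was close to the B lineage level in control and with DON. In control, progenitors stood first for 7 of the 10 mRNAs, but next to the class below them they were apart beyond counting error only for Phgdh, Shmt2 and Aldh18a1. At 50 µM they stood first for 9 of 10, all 9 apart from the next class.

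Neighbouring enzymes were taken from lists chosen with earlier results of these data known. In progenitors at 50 µM, 1 of 6 measured asparagine and aspartate enzymes was higher, none of 15 other serine and one-carbon enzymes, none of 4 other proline enzymes, and 3 of 7 cysteine and glutathione enzymes. None of these was lower, beside 1.8% of all genes higher and 0.991% lower in this class. The asparaginyl-tRNA synthetase Nars was 137 and 217 CPM, and Gclc, of glutathione synthesis, 24.3 and 44.7. Oat, which links ornithine to proline metabolism, was within 1.5-fold of control at 50 µM in cDC1 (58.6 and 62.1 CPM) and in cDC2 (52.5 and 51.0 CPM). Glycolytic enzymes next to phosphoenolpyruvate lay the other way from Pck2: 3 of 3 were lower in progenitors, beside 0.991% of all genes. Eno1 was 165 and 59.0 CPM there and Pkm, pyruvate kinase, 729 and 300 CPM. In cDC1 3 of 3 (1.97% of all genes) and in cDC2 2 of 3 (1.35%) were lower as well. Of ATF4 and its other targets, 16 of 22 measured in progenitors were higher and none lower, with a median log2 ratio of 1.03, beside 1.8% of all genes higher there. In cDC2 5 of 17 were higher (4.47% of all genes), in pDCs 3 of 15 (8.07%) and in cDC1 2 of 15 (2.85%). In each of these 1 gene was lower, beside 1.35%, 2.92% and 1.97% of all genes. The differences between classes were not tested. Atf5, a related factor, was 4.17 and 56.8 CPM in progenitors, and Slc7a5, an amino acid transporter, 20.2 and 83.0 CPM. With DON none of 14 of these was higher in progenitors and 2 were lower, beside 0.0997% and 0.399% of all genes.

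The 10 mRNAs did not follow 1 pattern over cell classes. Over 40 sums of class and library, Pearson's r of log2 levels was 0.85 between Phgdh and Shmt2 and 0.83 between Phgdh and Pycr1, but 0.10 between Mthfd2 and Pck2. These sums share libraries and differ in depth, and the values are descriptions. Among 9054 genes the closest to Phgdh were Asf1a, a histone chaperone, at 0.90, Cnn3 at 0.90 and Myb, a progenitor transcription factor that is also one of the gate markers, at 0.87. Psat1 was closest to Banf1, Nhp2 and Prim1, Shmt2 to Anapc1, Cmss1 and Ddx1, and Psph to Cmss1, Akap8 and Pabpc4. Asns had less close neighbours, Med13l at 0.77, Adgrg3 at 0.73 and Ampd2 at 0.72. For Mthfd2 they were Cmc2, Nans and Gins3, for Aldh18a1 Ndufa4, Ints2 and Ewsr1, and for Pck2 Mid1, Gtf3c2 and Ccdc77. Pycr1 and Cth were below 20 CPM in every sum and were left out of this search.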

How the data were processed

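The values deposited by the authors are unnormalised UMI counts, 1 matrix per library. Cell Ranger 6.0.0 is named per the file headers, and 3.1.0 with the mm10 genome per the submitters' processing notes, so the version is not settled. The annotation used for counting is not given in the sources used here, and positions are from GENCODE vM21. Barcodes with at least 1000 UMIs, 500 genes and at most 10% mitochondrial UMIs were kept.

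The 10 genes and the gene lists were chosen with earlier results of these data known, and the gate limits were set after the data were seen. A gate needs 3 or 4 distinct markers and 5 to 30 marker UMIs per 10000, and for cDC1 and cDC2 at least 50 MHC class II UMIs per 10000 (progenitors fewer). A cDC in the mature DC gate was called mature. Other cells in 2 gates (5.40%, 4.02% and 4.21%) were left out of the classes as possible doublets, and no doublet caller was run. UMIs were summed per class and scaled to CPM, with exact Poisson intervals, exact conditional binomial intervals of ratios and Clopper-Pearson intervals of shares, at 95%. PCR and droplet effects are not covered by them. Where a share is 0, the limit is that of 3 counts. Comparisons use classes of at least 100 cells in each library.

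All 10 genes are named. From each list up to 2 genes of at least 20 CPM with the largest ratios in cDC1 or cDC2 may be named, and those of progenitors were added after their values were seen. For each of the 10 at 20 CPM or more in 1 sum, the 3 genes with the highest Pearson r of log2(CPM + 5) over sums of at least 200000 UMIs are named. Of 104 listed symbols, 2 were not matched and 1 has 2 rows and was left out. Alternatives changed the added CPM, scaling, low-value filter, gates, doublet treatment, barcodes and cycling cells. The summing and ratios were tested on simulated data. Python 3.11.15, numpy 2.4.6, scipy 1.17.1 and pandas 2.3.3 were used.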

Additional observations from a re-analysis of the deposited data

Results flagged for a closer look

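Mthfd2 was lower at 50 µM glutamine in the ungated MHC class II-low cells below the cycling limit, at 52.7 CPM in control (199 UMIs) and 31.8 CPM at 50 µM (120 UMIs). Its log2 ratio there was -0.65, a 0.604-fold ratio of CPM (0.477 to 0.761 by counting error), while it was at least 1.5-fold higher in 8 other classes, from progenitors to B lineage cells. It stands out because the direction is opposite under the same comparison, and the difference between classes was not tested. Other markers moved in the same class, with cDC2 markers summing to 332 CPM in control and 642 CPM at 50 µM, or 27.9% and 47.5% of their level in cDC2, and the median of progenitor markers at 0 and 1.08 UMIs per 10000. Their part in the Mthfd2 difference was not tested. Phgdh (18.8 and 65.8 CPM) and Asns (5.30 and 21.2 CPM) were higher in these same cells. The flagged class holds no cycling cells. Below the cycling limit in the gates, the log2 ratio of Mthfd2 at 50 µM was -0.012 in pDCs and 0.17 in cDC2. It was 0.33 in cDC1 and 0.25 in progenitors, and the ratio intervals of all these include 1. Only in mature DCs, at 0.94, was it past 1.5-fold below that limit.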

How the results depend on the processing

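Each count of genes and each log2 ratio in 6 classes was recomputed under 11 alternatives, of which the restriction to cycling cells was chosen after seeing the data. Of 260 recomputed counts 241 stayed within 1.5 times the reported one, and of 1300 log2 ratios 1202 stayed within the 95% counting interval of the reported one. The setting with only cells below the cycling limit kept fewer, 12 of 20 counts and 55 of 100 log2 ratios. The sign differed in 47 of the 1300, of which 17 were in cells below the cycling limit and 11 in cycling cells only. Of ratios past 1.5-fold, 1 changed sign, Mthfd2 at 50 µM in pDCs, at -0.012 below the cycling limit. The counts that follow are of the enzyme genes only. No share of all genes past 1.5-fold under the same setting is set beside them. They therefore do not show how many genes would pass by counting error in a small subset. In cells below the cycling limit the genes higher at 50 µM were 1 in cDC1, 2 in cDC2, 1 in pDCs, 2 in mature DCs and 5 in progenitors (34 control cells). With DON there were 0 higher in mature DCs, and 1 higher and 5 lower in progenitors. Of these progenitor genes only Psph, which was lower, had a ratio interval that excludes 1. In cycling cells only, 4 were higher at 50 µM in cDC1 and 7 in mature DCs, and 2 were lower with DON in cDC2. With genes measured at 20 CPM, the genes higher at 50 µM were 1 in cDC1, 2 in cDC2 and 2 in mature DCs, and with DON 0 were lower in cDC2 and 0 higher in mature DCs. Adding 1 CPM gave 2 higher with DON in mature DCs. Without the 5% of cells with the most UMIs, 4 were higher with DON in mature DCs and 1 was lower in progenitors. Scaling by the median of ratios moved all genes by 0.12 (log2) in cDC2 and 0.13 in pDCs at 50 µM, and under 0.1 elsewhere, and changed no count by over 1.5 times. No paired analysis was possible because each group has 1 library. For a gene at 0 UMIs in a class, depth allows up to 3 UMIs.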

Other observations

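Outside the 10 genes, 4 of 6 measured cysteine and glutathione enzymes were higher in mature DCs at 50 µM glutamine and none was lower, with a median log2 ratio of 0.74. Of all genes measured there, 5.11% were higher and 5.08% lower. In cDC2 2 of 6 were higher, beside 4.47% of all genes, with Txnrd1, thioredoxin reductase, at 33.2 CPM in control and 75.6 CPM at 50 µM. With DON, Txnrd1 in cDC2 was 48.5 CPM. In progenitors Mthfd1, a cytosolic one-carbon enzyme, was 33.2, 43.2 and 46.5 CPM in control, at 50 µM and with DON. Pgam1, phosphoglycerate mutase, was 265, 156 and 169 CPM in cDC2 in the same order. In the cells left out because they passed 2 gates, the 10 mRNAs summed to 168 CPM in control, 506 at 50 µM and 214 with DON.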
